A study of Mus musculus with 6 samples.

Results

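The genes described here are 43 genes of DNA replication and mitosis, chosen by their symbols from 24391 gene rows of a read count table of mouse tumour macrophages. Of these, 23 act at the G1/S transition and in DNA replication (Mcm2 to Tk1), and 20 act in G2 and mitosis (Mki67 to Tpx2). All 43 passed the filter on low counts, and all 43 were also found among the 23284 gene rows of a second table, in FPKM, which are mapped fragments per unit of transcript length and of sequencing depth. The cells were tumour-associated macrophages (TAMs) sorted from colorectal tumours of BALB/c mice, either CCL5-/- mice, which lack the gene of the chemokine CCL5, or wild-type (WT) mice. CD11bhi F4/80low cells gave 2 CCL5-/- and 2 WT libraries with read counts. CD11blow F4/80hi cells gave 1 library labelled CCL5-/- and 1 labelled WT, with FPKM only. CD11b and F4/80 are surface proteins of myeloid cells and macrophages, and the study asked how CCL5 bears on gene expression in both populations. Age, sex, tumour model and any pooling of animals are not given in the sources used here, so every p-value measures library-to-library spread that may be technical in origin.

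In late G1, Cdc6 and Cdt1 load the ring of Mcm helicase subunits onto replication origins, and Cdc45 and the GINS complex turn it into the helicase that opens the fork in S phase. E2F factors switch on these genes together with those for nucleotide supply, while Mybl2 and Foxm1, with the DREAM proteins, control a later wave that builds the spindle and drives mitosis. Macrophages in mouse tumours can divide in the tissue as well as arise from blood monocytes.

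Promoter sequences were searched for short motifs known from cell cycle genes. RefSeq promoters (build GRCm38.p6, 250 bases before to 50 after the start of the gene) matched 34 members, 19 of G1/S and 15 of G2/M. The motifs searched on both strands were E2F (TTCCCGC or TTGGCGC), CHR (TTTGAA), a site of late cell cycle promoters, and the CCAAT box (CCAAT). The reverse of the CCAAT box, ATTGG, can overlap TTGGCGC. E2F letters were found in 9 of 19 G1/S and 3 of 15 G2/M promoters, against 7.79% of all 27025 promoters in the table. Mcm7 and Uhrf1 each had a further promoter entry, but members were counted by gene. Of the Uhrf1 entries, only the upstream entry held E2F letters. CHR letters were found in 2 of 19 G1/S and 10 of 15 G2/M promoters, against 20.2% of all. CCAAT boxes were found in 11 of 19 G1/S and 13 of 15 G2/M promoters, against 41.1% of all. These matches are letters in a window and not measured binding. The 120 bases just upstream of the start are shown for 7 members, 5′ to 3′ along the gene, with matched motifs in capitals. These are picked examples and do not stand for their groups. Pcna, E2f1 and Ccne1, for instance, held no E2F letters in this stretch, and Nusap1 and Birc5 no CHR letters. Mcm6 and Rrm1 show E2F letters, Cdk1, Cdc20 and Top2a CHR letters with CCAAT boxes, and Mki67 both CHR and E2F letters. Mybl2 shows none of the exact letters searched. Its stretch does hold TTGGCGG, which differs from the searched TTGGCGC in the last base only. The search therefore does not show that Mybl2 lacks an E2F site.
Mcm6 (chr1:128359706-128359825, minus strand): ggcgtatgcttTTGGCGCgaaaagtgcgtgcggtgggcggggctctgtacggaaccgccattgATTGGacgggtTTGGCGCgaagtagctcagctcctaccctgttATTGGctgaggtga
Rrm1 (chr7:102441575-102441694, plus strand): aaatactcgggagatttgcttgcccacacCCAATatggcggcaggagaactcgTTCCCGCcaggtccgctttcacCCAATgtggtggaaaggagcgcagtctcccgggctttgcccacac
Mybl2 (chr2:163054515-163054634, plus strand): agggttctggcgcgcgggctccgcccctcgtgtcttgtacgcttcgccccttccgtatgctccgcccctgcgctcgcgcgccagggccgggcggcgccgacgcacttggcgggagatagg
Cdk1 (chr10:69352913-69353032, minus strand): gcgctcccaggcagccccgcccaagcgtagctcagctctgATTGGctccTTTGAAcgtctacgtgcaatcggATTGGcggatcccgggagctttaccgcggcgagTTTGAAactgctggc
Cdc20 (chr4:118437344-118437463, minus strand): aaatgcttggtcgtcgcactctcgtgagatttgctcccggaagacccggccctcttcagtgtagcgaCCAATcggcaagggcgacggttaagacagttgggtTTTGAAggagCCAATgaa
Top2a (chr11:99024190-99024309, minus strand): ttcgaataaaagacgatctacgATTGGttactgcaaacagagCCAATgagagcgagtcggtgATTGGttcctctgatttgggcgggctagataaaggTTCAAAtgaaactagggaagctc
Mki67 (chr7:135716380-135716499, minus strand): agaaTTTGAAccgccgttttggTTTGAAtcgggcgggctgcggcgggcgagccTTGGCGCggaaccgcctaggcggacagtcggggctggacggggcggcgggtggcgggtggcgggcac

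The libraries were split by replicate number in depth and make-up. Total counts were 10494542 and 19073767 in CCL5-/- replicates 1 and 2, and 9280635 and 22411342 in WT replicates 1 and 2. The ribosomal RNA precursor Rn45s took 50.03% and 58.4% of counts in the replicate 1 libraries of CCL5-/- and WT, against 1.38% and 0.844% in the replicate 2 libraries, and the first principal component (77.6% of variance) separated the numbers. The deleted gene, Ccl5, had 35 and 82 reads in CCL5-/- libraries, against 255 and 3976 in WT libraries, which goes with the labels. In the FPKM table it went against them, with 145 FPKM under the CCL5-/- label and 15.7 FPKM under the WT label. How single genes' reads split between WT replicate 1 and CCL5-/- replicate 1 followed their FPKM ratio, CCL5-/- label over WT label, in the F4/80hi libraries. The match was closer than independent reads allow. The median chi-square was 0.334 over 6677 genes, against 0.455 for independent reads and 3.58 to 8.94 for the 11 other pairings. The F4/80hi libraries are therefore treated as the replicate 1 libraries with crossed labels and never as further replicates, and which gate the replicate 1 cells came from cannot be told apart from the replicate number. The F4/80 gene Adgre1 had 53.7 and 35.3 CPM in CCL5-/- libraries and 35.6 and 51.8 CPM in WT libraries, and the CD11b gene Itgam 580 and 144 CPM against 598 and 180 CPM. CPM here are read counts scaled to library size, with TMM factors that put the bulk of genes on a common scale.

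No replication or mitosis gene passed the test between CCL5-/- and WT F4/80low libraries. However, 20 of 23 G1/S genes and 7 of 20 G2/M genes had higher values in CCL5-/- in both same-numbered pairs of libraries. The G2/M count lay closer than the G1/S count to the share over all genes tested, 24.8%. Under edgeR's quasi-likelihood test (adjusted p under 0.05), 0 of 43 members were called, against 0% of all 12710 genes tested. The deleted gene, Ccl5, did not pass either, at a log2 change of -4.64 (SE 0.69; edgeR adjusted p = 0.999973). The count of 0 therefore does not show that the members were unchanged. At an unadjusted p under 0.05 edgeR gave 1 member, Mybl2, against 41 or 0.323% of all genes. DESeq2 called 1 gene and limma-voom 0, and neither of these tools called a member. With a term for the replicate number, 10 genes passed (0.0787% of all) and again 0 members. Ccl5 was not among the genes that passed that fit (log2 change -4.58, SE 0.53; edgeR adjusted p = 0.0985). At an unadjusted p under 0.05 that fit gave 6 members, all of G1/S and all higher in CCL5-/- (Mybl2, Mcm4, Mcm3, Mcm5, Ccne2 and Rrm2), and 0 members of G2/M, against 5.86% of all genes in either direction and 1.85% on the higher side. In bulk RNA, fewer cells of a dividing kind and less RNA per cell cannot be told apart.

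The G1/S group had a median log2 change (CCL5-/- over WT) of 0.37, with a range of -0.15 to 1.06. The G2/M group had a median of 0.13, with a range of -0.34 to 0.38, and all genes tested had a median of -0.01. The G2/M median was thus 0.24 below the G1/S median (difference -0.24), and each same-numbered pair gave a gap of -0.21. The G1/S median was 0.66 without CCL5-/- replicate 1 and 0.17 without CCL5-/- replicate 2, so its size moved with that arm. Leaving out 1 library at a time also moved the G2/M median between 0.08 without CCL5-/- replicate 2 and 0.26 without CCL5-/- replicate 1, and the gap was -0.09 and -0.40 under the same omissions and -0.15 without WT replicate 1 and -0.37 without WT replicate 2. No sign changed.

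In the pair of replicates 1, 22 of 23 G1/S genes and 14 of 20 G2/M genes were higher in CCL5-/-, against 50.6% of all genes. In the pair of replicates 2 these counts were 20 and 13, against 47.6% of all genes. Over both pairs, 20 of 23 G1/S genes were higher in CCL5-/- in both pairs, 1 was lower in both (Chek1) and 2 were mixed (Gins2 and Tyms). Of the 20 G2/M genes, 7 were higher in both pairs (Ccnb1, Ccnb2, Cdk1, Bub1b, Kif11, Kif20a and Tpx2), 0 were lower in both and 13 were mixed. Over all genes, 24.8% were higher in both pairs and 26.5% lower in both. Both CCL5-/- values lay above both WT values for 15 G1/S genes and 3 G2/M genes, against 8.36% of all genes, and below them for 1 G1/S gene and 0 G2/M genes, against 8.24%. The summed level of the G1/S group was 1084 and 1490 CPM in CCL5-/- libraries, against 846 and 1131 CPM in WT libraries. That of the G2/M group was 968 and 958 CPM in CCL5-/- libraries, against 890 and 920 CPM in WT libraries. The G1/S sums of CCL5-/- lay above WT by number but their ranges overlapped, while the G2/M sums did not overlap yet sat close together.

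**Figure D1:**
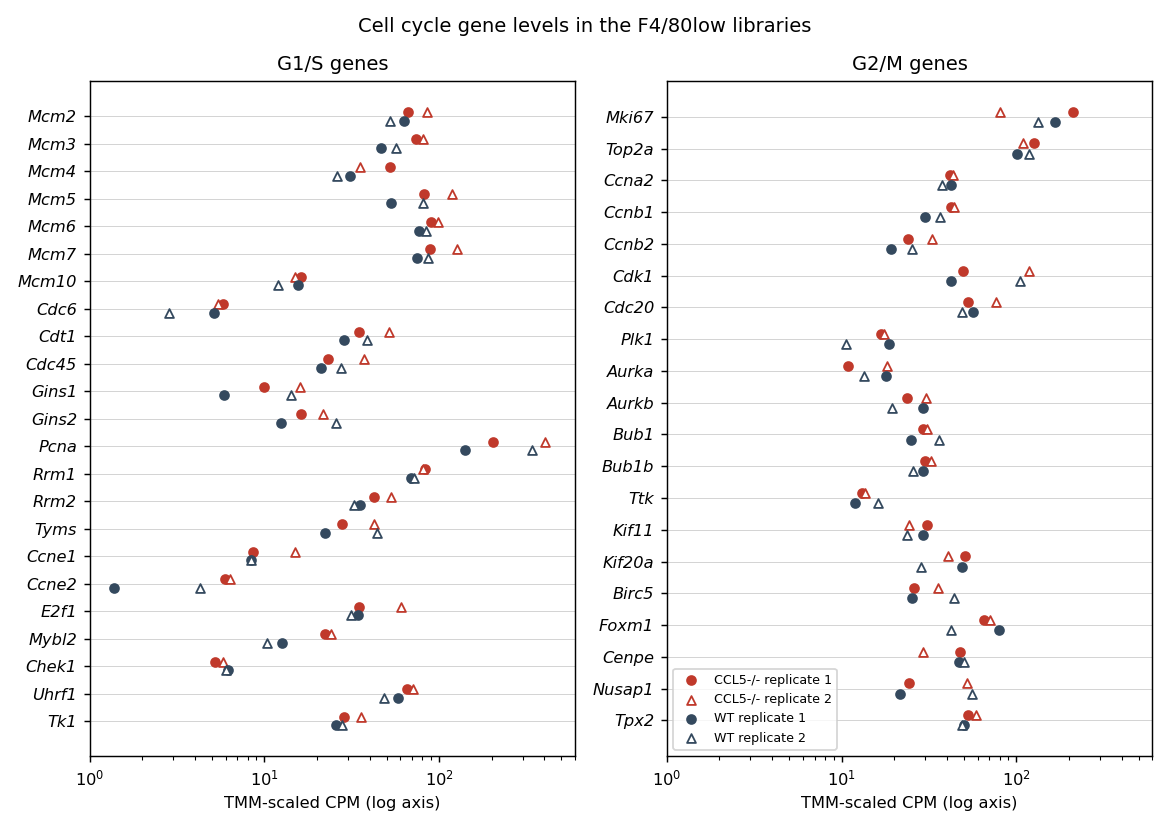
Levels of the 43 members in the 4 F4/80low libraries as TMM-scaled CPM on a log axis, G1/S genes on the left and G2/M genes on the right. Each point is 1 library; red is CCL5-/- and dark grey is WT, filled circles are replicate 1 and open triangles replicate 2. Red points sit to the right of both grey points for 15 G1/S genes and 3 G2/M genes, against 8.36% of all genes tested.

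**Figure D2:**
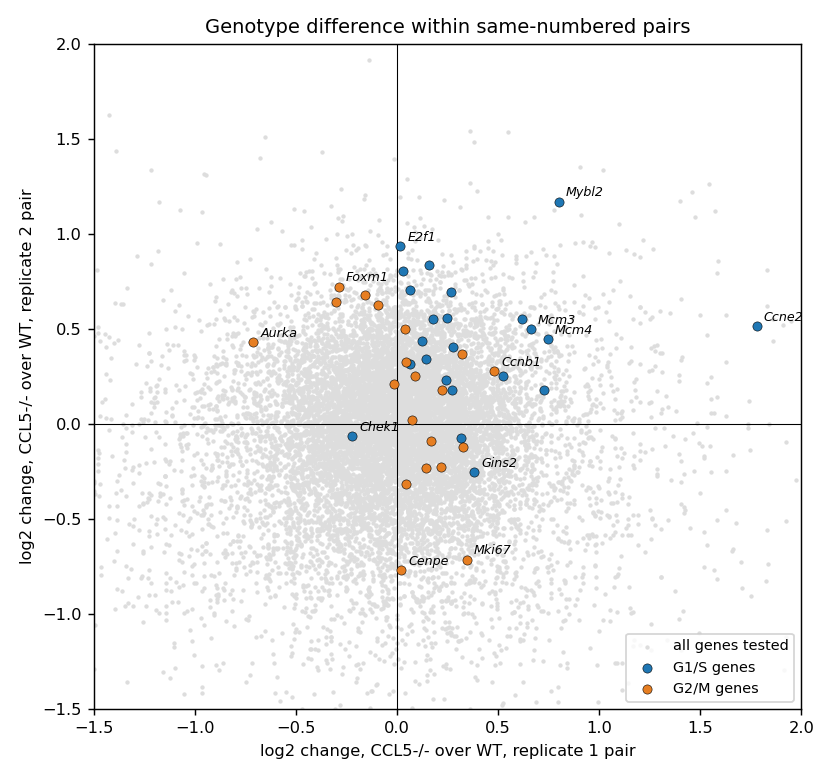
Log2 change of CCL5-/- over WT in the replicate 1 pair (x axis) and the replicate 2 pair (y axis), computed on CPM plus 0.5, for G1/S genes (blue), G2/M genes (orange) and all genes tested (grey, cropped at the axis limits). The upper right quadrant (higher in both pairs) holds 20 of 23 G1/S genes and 7 of 20 G2/M genes, against 24.8% of all genes before cropping.

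Helicase loading and origin firing were covered by 12 genes, of which 11 were higher in CCL5-/- in both pairs and 7 had non-overlapping groups, against 24.8% and 8.36% of all genes. Their median log2 changes were 0.26 for replicates 1 and 0.44 for replicates 2. All of Mcm2 to Mcm7, the subunits of the helicase ring, had non-overlapping groups. Mcm4 (chr16:15623897-15637400 in GRCm38, as are all gene positions given here) had 52.2 and 35.4 CPM in CCL5-/- libraries, against 30.9 and 25.8 CPM in WT libraries. Its log2 change was 0.63 (SE 0.39; edgeR adjusted p = 1). Mcm3 (chr1:20802968-20820312) had 73.9 and 80.6 CPM in CCL5-/- libraries, against 46.6 and 56.8 CPM in WT libraries, a log2 change of 0.58 (SE 0.36; edgeR adjusted p = 1). Mcm3 and Mcm4 were the subunits with the smallest p-values, and in each the gap held in both pairs (0.66 and 0.50 for Mcm3, 0.75 and 0.45 for Mcm4).

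Mcm2 (chr6:88883474-88898780) had 66.1 and 85.5 CPM in CCL5-/- libraries, against 63.2 and 52.2 CPM in WT libraries. Its change lay almost wholly in the replicate 2 pair (0.06 for replicates 1, 0.70 for replicates 2). Mcm5 had 81.6 and 119 CPM in CCL5-/- libraries, against 53.1 and 80.9 CPM in WT libraries, a narrow separation between the groups. Mcm6 had 90.0 and 97.9 CPM against 76.1 and 83.5 CPM, and Mcm7 had 88.0 and 127 CPM against 74.2 and 85.9 CPM, CCL5-/- first in each. The loaders differed in level. Cdc6, which recruits the helicase to origins, had 5.81 and 5.44 CPM in CCL5-/- libraries, against 5.15 and 2.83 CPM in WT libraries. Cdt1, its partner in loading, had 34.6 and 51.5 CPM in CCL5-/- libraries, against 28.5 and 38.8 CPM in WT libraries, so its groups overlapped although each pair was higher in CCL5-/-.

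Cdc45, which joins the ring to make the active helicase, had 23.0 and 37.3 CPM in CCL5-/- libraries, against 21.1 and 27.4 CPM in WT libraries. Mcm10, which helps to activate it, had 16.2 and 14.9 CPM in CCL5-/- libraries, against 15.5 and 11.9 CPM in WT libraries. Both overlapped between genotypes. Among the GINS subunits, Gins1 had 10.0 and 16.0 CPM in CCL5-/- libraries, against 5.84 and 14.1 CPM in WT libraries, and Gins2 had 16.3 and 21.6 CPM against 12.4 and 25.8 CPM. In Cdt1, Cdc45, Gins1 and Gins2 alike, both replicate 2 values lay above both replicate 1 values, and Gins2 was the 1 gene of the 12 with pairs of opposite sign (0.38 for replicates 1, -0.25 for replicates 2).

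Nucleotide supply and the replication fork were covered by 6 genes, of which 5 were higher in both pairs and 4 had non-overlapping groups. Over all genes these shares were 24.8% and 8.36%. Rrm2, the regulated subunit of ribonucleotide reductase, had 42.3 and 53.2 CPM in CCL5-/- libraries, against 35.0 and 32.6 CPM in WT libraries. Its log2 change was 0.50 (SE 0.35; edgeR adjusted p = 1). Rrm1, the partner subunit, had 83.3 and 81.2 CPM in CCL5-/- libraries, against 68.9 and 71.9 CPM in WT libraries, so Rrm2 was further apart than Rrm1. Tk1, a salvage kinase for thymidine, had 28.5 and 35.5 CPM in CCL5-/- libraries, against 25.8 and 27.8 CPM in WT libraries. Uhrf1, which copies DNA methylation behind the fork, had 65.8 and 70.9 CPM in CCL5-/- libraries, against 58.1 and 48.2 CPM in WT libraries. In all 4 of these genes both CCL5-/- values were above both WT values.

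Pcna (chr2:132249162-132253314), the sliding clamp of the DNA polymerases, had 202 and 404 CPM in CCL5-/- libraries, against 141 and 339 CPM in WT libraries. It was higher in CCL5-/- in both pairs (0.52 and 0.25), but the gap between replicates was wider than that between genotypes. Tyms, which makes thymidylate, had 27.7 and 42.1 CPM in CCL5-/- libraries, against 22.2 and 44.3 CPM in WT libraries, with pairs of opposite sign (0.31 and -0.07).

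The G1/S regulators were 5 genes with the widest spread of all, with 4 higher and 1 lower in CCL5-/- in both pairs and no overlap of groups in any. Over all genes, 24.8% were higher and 26.5% lower in both pairs. Groups did not overlap for 8.36% of all genes on the higher side and 8.24% on the lower side. Mybl2 (chr2:163054687-163084688), a transcription factor that carries E2F output over to G2/M genes, had 191 and 653 reads in CCL5-/- libraries and 73 and 316 reads in WT libraries. As CPM these were 22.2 and 23.98 in CCL5-/- libraries, against 12.5 and 10.4 in WT libraries. The log2 change was 1.02 (SE 0.35; edgeR adjusted p = 1), and 1.03 (SE 0.24; edgeR adjusted p = 0.159) with the replicate term. Mybl2 had the lowest p of the 43 genes in both fits, was higher in both pairs (0.80 and 1.17), and did not pass over all genes. It kept its size when any 1 library was left out (0.88 to 1.17).

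Ccne2 (chr4:11191351-11204779), a cyclin that opens S phase with Cdk2, had 5.93 and 6.32 CPM in CCL5-/- libraries, against 1.37 and 4.27 CPM in WT libraries. Its log2 change of 1.06 (SE 0.63; edgeR adjusted p = 1) leaned on WT replicate 1, where it had 8 reads (exact Poisson 95% interval 3.45 to 15.8, counting error only). Without that library the change was 0.54, and without WT replicate 2 it was 2.15. The sister cyclin Ccne1 had 8.60 and 15.0 CPM in CCL5-/- libraries, against 8.42 and 8.38 CPM in WT libraries. E2f1, an activator of G1/S genes, had 34.8 and 60.5 CPM in CCL5-/- libraries, against 34.4 and 31.4 CPM in WT libraries. For Ccne1 and E2f1 the separation came from CCL5-/- replicate 2, since the replicate 1 pairs differed by only 0.03 and 0.02 on the log2 scale. Chek1, the kinase that restrains cells with damaged or unfinished DNA, was the 1 member lower in both pairs. It had 5.23 and 5.77 CPM in CCL5-/- libraries against 6.18 and 6.05 CPM in WT libraries. In replicate 1 these rest on 45 reads in CCL5-/- and 36 in WT. Counting error there was wide (exact Poisson 95% intervals 32.8 to 60.2 and 25.2 to 49.8 reads).

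In the G2/M group, the proliferation markers Mki67 and Top2a had pairs of opposite sign. Mki67 (chr7:135689784-135716361), the Ki-67 protein that coats mitotic chromosomes, had 210 and 80.9 CPM in CCL5-/- libraries, against 166 and 133 CPM in WT libraries. It was higher in the replicate 1 pair (0.34) and lower in the replicate 2 pair (-0.71), so that CCL5-/- libraries held both the highest and the lowest value. Top2a (chr11:98992943-99024189), the topoisomerase that untangles sister chromatids, had 127 and 109 CPM in CCL5-/- libraries, against 101 and 119 CPM in WT libraries, a log2 change of 0.10 (SE 0.37; edgeR adjusted p = 1).

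The cyclins and regulators of G2/M were 6 genes, of which 3 were higher in both pairs and 1, Ccnb1, had non-overlapping groups. Over all genes, 24.8% were higher in both pairs and 8.36% had groups apart on the higher side. Ccnb1, the cyclin B that drives mitotic entry with Cdk1, had 42.1 and 44.2 CPM in CCL5-/- libraries, against 30.1 and 36.4 CPM in WT libraries. Its log2 change of 0.38 (SE 0.35; edgeR adjusted p = 1) was the highest of the G2/M group. Ccnb2 had 23.9 and 32.9 CPM in CCL5-/- libraries, against 19.1 and 25.3 CPM in WT libraries, a change of like size (0.35) with overlapping groups. Cdk1 (chr10:69335146-69352938) had 49.2 and 118 CPM in CCL5-/- libraries, against 42.1 and 105 CPM in WT libraries. The Cdk1 values split by replicate number, with small genotype gaps in each pair (0.22 and 0.18).

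Cdc20, which activates the anaphase-promoting complex, had 52.8 and 76.1 CPM in CCL5-/- libraries, against 56.3 and 49.1 CPM in WT libraries. Foxm1, the transcription factor of G2/M genes, had 65.0 and 70.3 CPM in CCL5-/- libraries, against 79.5 and 42.4 CPM in WT libraries. Ccna2, the cyclin A of S phase and G2, had 41.8 and 43.5 CPM in CCL5-/- libraries, against 42.3 and 37.5 CPM in WT libraries. In these 3 genes the pairs had opposite signs, lower in CCL5-/- in the replicate 1 pair and higher in the replicate 2 pair.

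Mitotic kinases and checkpoint genes were 7, with 1 higher in both pairs (Bub1b), 0 lower in both and 6 mixed. Over all genes, 24.8% were higher and 26.5% lower in both pairs, and 8.36% had non-overlapping groups on the higher side. Their log2 changes ran between -0.18 and 0.23 around a median of -0.03. Aurka, the centrosome kinase, had 10.8 and 18.2 CPM in CCL5-/- libraries, against 18.0 and 13.4 CPM in WT libraries. Aurkb, the kinase of the chromosomal passenger complex, had 23.6 and 30.5 CPM in CCL5-/- libraries, against 29.2 and 19.3 CPM in WT libraries. Plk1, which acts from mitotic entry to cytokinesis, had 16.7 and 17.4 CPM in CCL5-/- libraries, against 18.7 and 10.7 CPM in WT libraries. Aurka, Aurkb and Plk1 were each lower in the replicate 1 pair and higher in the replicate 2 pair. Bub1b, a part of the checkpoint that holds back anaphase, had 29.99 and 32.3 CPM in CCL5-/- libraries, against 29.0 and 25.7 CPM in WT libraries, and was the 1 gene of the 7 with non-overlapping groups. The order of signs was turned round, higher in the replicate 1 pair and lower in the replicate 2 pair, for Birc5, a partner of Aurkb, for Bub1 and Ttk, kinases of the spindle checkpoint, and for Cenpe and Nusap1 among the spindle genes.

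Of the 5 spindle and kinetochore genes, 3 were higher in both pairs (Kif11, Kif20a and Tpx2) and 1, Tpx2, had non-overlapping groups. The shares over all genes were 24.8% and, on the higher side, 8.36%. Tpx2, which activates Aurka on the spindle, had 53.0 and 58.5 CPM in CCL5-/- libraries, against 49.8 and 49.0 CPM in WT libraries. Kif11, the motor that separates spindle poles, had 30.9 and 24.1 CPM in CCL5-/- libraries, against 29.4 and 23.8 CPM in WT libraries. Kif20a, a motor of cytokinesis, had 50.6 and 40.5 CPM in CCL5-/- libraries, against 49.1 and 28.4 CPM in WT libraries. Kif11 and Kif20a overlapped between genotypes. Cenpe (chr3:135212537-135273611), a kinetochore motor, had 47.8 and 29.2 CPM in CCL5-/- libraries, against 47.1 and 50.2 CPM in WT libraries. Its log2 change of -0.34 (SE 0.40; edgeR adjusted p = 1) was the lowest of the 43 and came from CCL5-/- replicate 2, since the replicate 1 pair differed by 0.02 and the replicate 2 pair by -0.77.

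Several members differed between the replicate numbers in both genotypes. Replicate 2 against replicate 1, tested in edgeR with a term for genotype, called 31.8% of all genes. Of the 43 members 8 passed, a smaller share than over all genes. On the higher side, called for 13.9% of all genes, were the G1/S genes Pcna, Gins1, Tyms and Gins2 and the G2/M genes Cdk1, Nusap1 and Birc5. On the lower side, called for 18% of all genes, was Mki67. Cdk1 rose most, by 1.29 on the log2 scale (SE 0.22; edgeR adjusted p = 0.000555), with 118 and 105 CPM in replicate 2 of CCL5-/- and WT against 49.2 and 42.1 CPM in replicate 1. Nusap1, which bundles spindle microtubules, rose by 1.24 (SE 0.22; edgeR adjusted p = 0.000742), with 52.3 and 55.7 CPM in replicate 2 against 24.2 and 21.5 CPM in replicate 1. Pcna rose by 1.135 (SE 0.24; edgeR adjusted p = 0.00242) and Mki67 changed by -0.85 (SE 0.27; edgeR adjusted p = 0.0276). Mki67 and Cdk1, both genes of dividing cells, had opposite signs here, but once trends with GC and length were subtracted the values were 0.50 for Mki67 and 1.74 for Cdk1, so the sign of Mki67 turned. Without CCL5-/- replicate 2 the Mki67 value was -0.50 (edgeR adjusted p = 0.155), and over all alternatives run its adjusted p lay between 0.00435 and 0.245. Gins1 (0.95), Tyms (0.80), Gins2 (0.72) and Birc5 (0.62) had edgeR adjusted p-values between 0.0137 and 0.0433. Fits with a library left out have no genotype term, and that fit called 3767 genes and 8 members with all libraries. It called 2 members and 2067 genes without WT replicate 1 and 2336 genes without CCL5-/- replicate 1.

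Transcript length and base composition moved with these differences. Over the 43 members the replicate difference had a Spearman rho of -0.49 with transcript length, and over the 12261 genes with a length it had -0.53, with the libraries and their depth shared by all points. Mki67, at 10061 bases the longest member transcript, was also the member with the lowest replicate difference, while Gins1 (1087 bases) and Pcna (1518 bases) were among the highest. Cdk1 (4375 bases) and Nusap1 (3526 bases), which had the highest differences, were longer than the member median of 3371 bases. GC content had a rho of 0.66 with the genotype change in the replicate 2 pair over the members, against 0.25 over all genes, and of -0.21 in the replicate 1 pair, against -0.22 over all genes. The 6 members below 0 in the replicate 1 pair and above it in the replicate 2 pair were Foxm1 (54.6% GC), Plk1 (56.0%), Aurkb (52.5%), Cdc20 (55.6%), Aurka (51.4%) and Ccna2 (46.1%). After subtraction of the trends all 6 kept these signs, with values between 0.20 (Ccna2) and 0.61 (Plk1) in the replicate 2 pair. After the trends with GC and length were subtracted, the G1/S median was 0.37 and the G2/M median 0.10. Higher in both pairs were then 20 G1/S and 6 G2/M genes, against 26.9% of all genes. Lower in both pairs were 0 G1/S and 4 G2/M genes, against 3304 of the 12261 genes. The G2/M median of the replicate 1 pair was then -0.0036. The part of RNA quality or library preparation in the replicate difference was not tested.

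**Figure D3:**
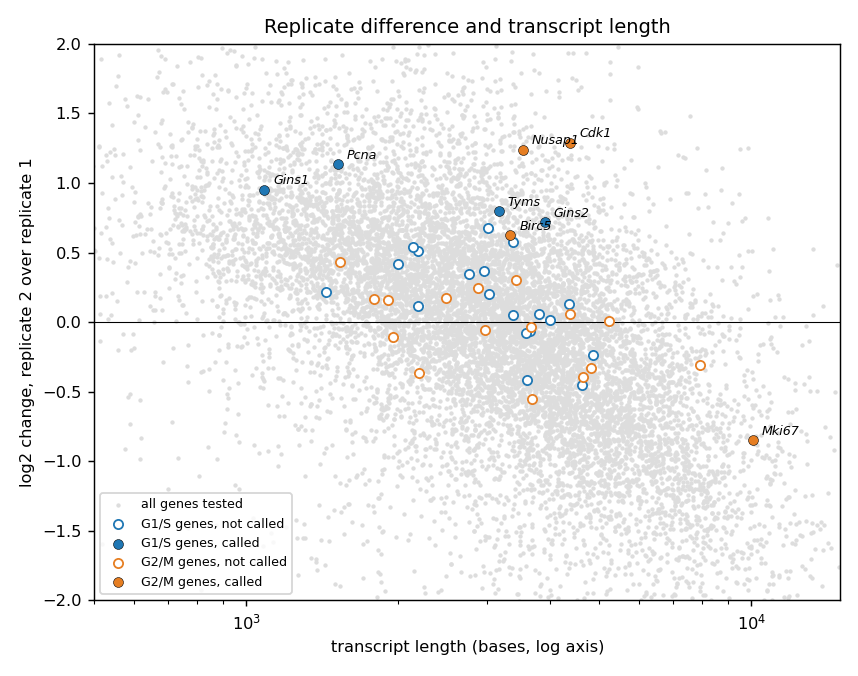
Log2 change of replicate 2 over replicate 1 against transcript length (log axis) for G1/S genes (blue), G2/M genes (orange) and all genes tested (grey, cropped at the axis limits). Filled points are the 8 members called in edgeR, with Mki67 at the far right as the 1 called member below 0.

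**Figure D4:**
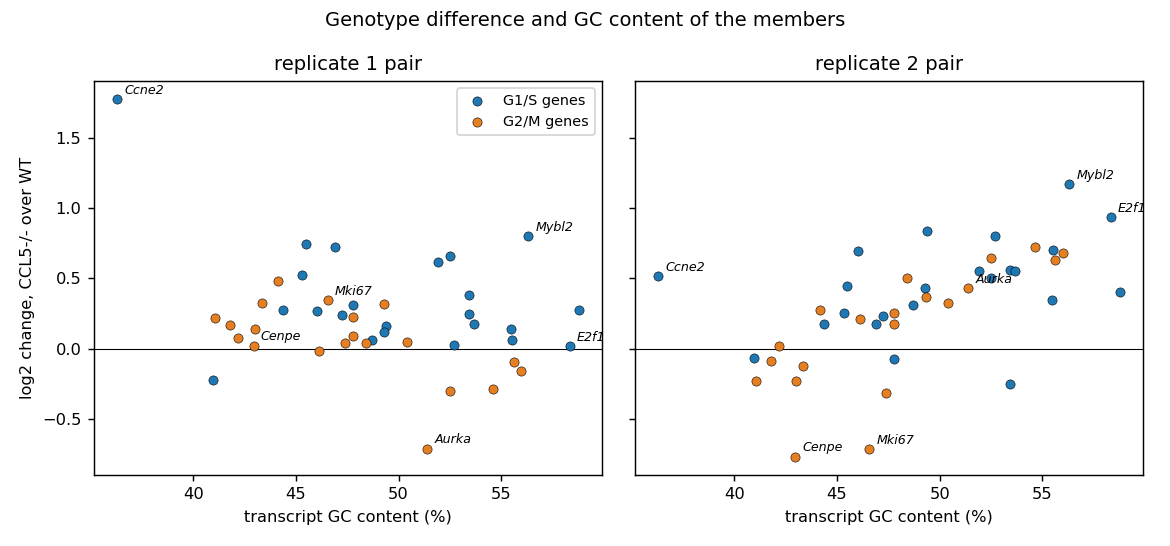
Log2 change of CCL5-/- over WT against transcript GC content for the 43 members, in the replicate 1 pair (left) and the replicate 2 pair (right). The points climb with GC content in the replicate 2 pair (rho 0.66) and not in the replicate 1 pair (rho -0.21).

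Other genes of the same processes were taken from lists that hold none of the 43. Of 37 other replication genes, 21 were higher in CCL5-/- in both pairs and 1 lower, with a median log2 change of 0.20, and 0 passed the test. Chaf1b, a subunit of the histone chaperone of new DNA, had 13.1 and 17.4 CPM in CCL5-/- libraries, against 8.42 and 11.5 CPM in WT libraries. Rfc5, a subunit of the loader of the Pcna clamp, had 30.7 and 29.3 CPM in CCL5-/- libraries, against 20.3 and 21.5 CPM in WT libraries. Both had non-overlapping groups, as had 7 of the 37, against 24.8% of all genes higher in both pairs and 8.36% with such groups.

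Of 43 other mitosis genes, 15 were higher in both pairs and 10 lower, with a median of 0.06, and 0 passed. For this list and those that follow, the shares over all genes were 24.8% higher and 26.5% lower in both pairs. Ccnf, a cyclin that marks proteins for destruction in G2, had 28.7 and 14.8 CPM in CCL5-/- libraries, against 50.7 and 31.5 CPM in WT libraries, a log2 change of -0.92 (SE 0.49; edgeR adjusted p = 1). With the replicate term the Ccnf change was -0.96 (edgeR adjusted p = 0.146), and Ccnf again did not pass. That adjusted p lay below the one of Mybl2 in the same fit (0.159). Ccnf was lower in both pairs, while Ect2, which directs the cleavage furrow, was higher in both (0.39 and 0.69). The list of cell cycle entry (D cyclins, their kinases, E2F and Myc) had 6 of 13 tested genes higher in both pairs and 1 lower. Ccnd1, the D cyclin induced by growth signals, had 341 and 278 CPM in CCL5-/- libraries, against 246 and 199 CPM in WT libraries, and Myc had 93.9 and 163 CPM against 64.9 and 101 CPM. Ccnd1 did not overlap between genotypes and Myc did. Of 19 tested CDK inhibitors, pocket proteins and DREAM genes, 7 were higher in both pairs and 5 lower, with a median of 0.08.

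Markers of other cell types differed between the libraries as well. Summed over 8 genes in the table, neutrophil markers had 590 and 291 CPM in CCL5-/- libraries, against 3281 and 496 CPM in WT libraries. Of these 8 genes, 7 were lower in CCL5-/- in both pairs, against 26.5% of all genes. Macrophage markers summed to 2008 and 1692 CPM in CCL5-/- libraries, against 1718 and 2206 CPM in WT libraries. Mature neutrophils do not divide and macrophages can, and the part of either sum in the G1/S values was not tested. The precursor markers of neutrophils summed to 1.98 and 1.95 CPM in CCL5-/- libraries, against 3.95 and 3.09 CPM in WT libraries. T cell markers summed to 36.6 and 29.8 CPM in CCL5-/- libraries, against 26.1 and 59.6 CPM in WT libraries. Epithelial or tumour cell markers, which would carry their own dividing cells, summed to 27.9 and 31.7 CPM in CCL5-/- libraries, against 33.3 and 17.8 CPM in WT libraries. T cell and epithelial sums both overlapped between genotypes. Fibroblast markers summed to 691 and 1030 CPM in CCL5-/- libraries, against 776 and 875 CPM in WT libraries. Endothelial markers summed to 14.3 and 9.88 CPM against 22.7 and 14.4 CPM, CCL5-/- first. B cell markers summed to 0.814 and 1.21 CPM against 0.859 and 2.104 CPM, in the same order. Sums can hide single genes. With the replicate term, 1 fibroblast marker, Dcn, and 1 neutrophil marker, Camp, passed, both lower in CCL5-/- (edgeR adjusted p = 0.0237 and 0.0275). Dcn had 21.2 and 89.5 CPM in CCL5-/- libraries, against 68.9 and 221 CPM in WT libraries. No listed marker found in the table was at 0 in all 4 libraries, and the part of other cell types in the members' values was not tested.

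**Figure D5:**
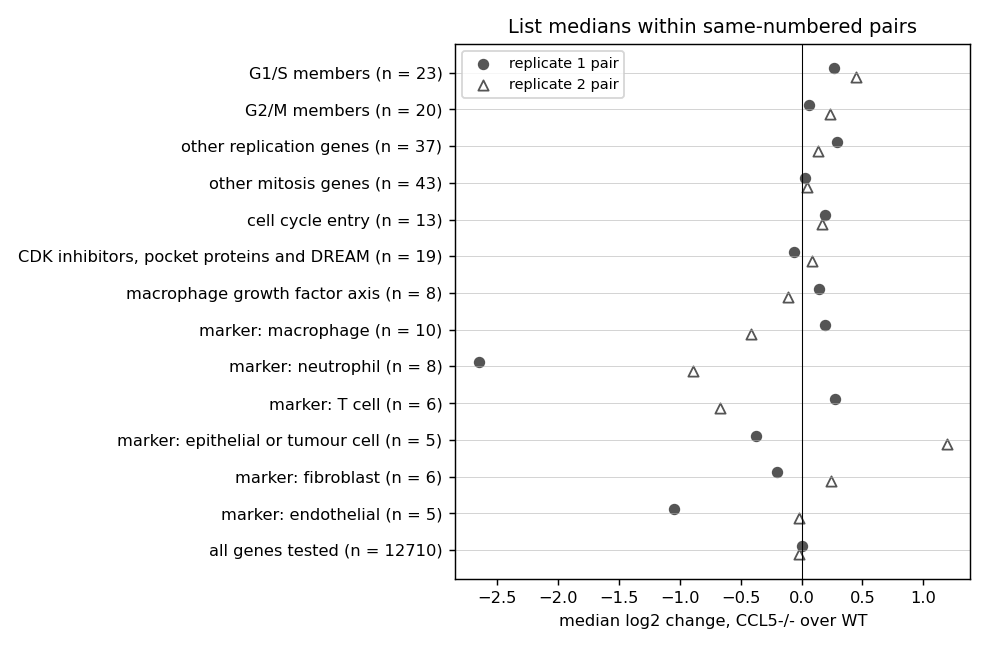
Median log2 change of CCL5-/- over WT in the replicate 1 pair (filled circles) and the replicate 2 pair (open triangles) for both member groups, 5 other gene lists, marker lists with at least 5 tested genes and all genes tested. The G1/S members sit at 0.27 and 0.45, the G2/M members at 0.06 and 0.23, and the neutrophil markers at -2.65 and -0.89.

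Per transcript length, Pcna was the most abundant member in both F4/80hi libraries, with 189 FPKM under the CCL5-/- label and 293 FPKM under the WT label. Next came Mcm7, with 36.1 FPKM (labelled CCL5-/-) and 41.8 FPKM (labelled WT), while Mcm6 had 33.3 and 41.2 FPKM. Cdc20 had 34.7 FPKM (labelled CCL5-/-) and 32.7 FPKM (labelled WT), and was the highest G2/M gene under the CCL5-/- label. The lowest member was Cdc6, with 1.35 FPKM (labelled CCL5-/-) and 1.77 FPKM (labelled WT). The G1/S group had medians of 18.9 FPKM (labelled CCL5-/-) and 19.1 FPKM (labelled WT), and the G2/M group had medians of 16.6 FPKM (labelled CCL5-/-) and 17.4 FPKM (labelled WT). The 6 subunits of the Mcm ring lay between 12.4 and 36.1 FPKM in the library labelled CCL5-/- and between 19.1 and 41.8 FPKM in the library labelled WT, with Mcm4 lowest and Mcm7 highest in both. Depth behind these FPKM is unknown.

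Going by the labels, 20 of 23 G1/S genes and 12 of 20 G2/M genes were lower in the library labelled CCL5-/-, against 52.3% of 11670 genes with an FPKM of at least 1. The median log2 changes of FPKM + 1, a scale that understates low genes, were -0.27 for G1/S and -0.09 for G2/M. The G1/S sum was 527 FPKM under the CCL5-/- label and 706 FPKM under the WT label, and the G2/M sum 359 and 376 FPKM. On the FPKM + 1 scale only Ccne2 was at least 2-fold apart (-1.07), where 1.58% of all genes were at least 2-fold lower and 2.35% at least 2-fold higher. Gins1 (-0.98 on that scale) had 5.96 FPKM under the CCL5-/- label and 12.8 FPKM under the WT label. Its FPKM were thus more than 2-fold apart before 1 was added. Mybl2 had 3.98 FPKM under the CCL5-/- label and 7.59 FPKM under the WT label. No test is possible for 1 library per label. Since these libraries match the replicate 1 libraries crosswise, the values carry the replicate 1 pair once more with the sign turned, and the sample titles, which name the opposite genotype from the genotype fields, would turn it back.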

How the data were processed

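Per the labels' protocols, RNA was taken with Trizol and sequenced after preparation with an Illumina TruSeq RNA kit. The authors deposited whole-number read counts per gene for 4 F4/80low libraries, and FPKM values for 2 F4/80hi libraries. A deposited table of the authors' comparison gives log2 fold changes, p-values and adjusted p-values, with counts scaled by size factors (a normalised signal), standard errors and a score that were not used here. The submitters' processing notes name the aligners STAR and TopHat2 2.1.1, the counters HTSeq and Cufflinks 2.2.1, and DESeq2. For each table, the tool, build and strand setting are not given in the sources used here. Reads of overlapping or antisense genes may therefore be mixed. FPKM loci overlapped GRCm38 genes (GENCODE M21) for 99.1% of 20911 shared symbols.

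The genotype and replicate contrasts were fitted in edgeR 4.0.16 under R 4.3.3 (filterByExpr, TMM, robust quasi-likelihood F test, two-sided). Over the 12710 genes kept, p-values were adjusted by Benjamini-Hochberg with a threshold of 0.05. The standard error of a change is the log2 change divided by the square root of F. DESeq2 1.42.0, limma 3.58.1 (voom), other scalings and filters, leaving out each library and a replicate term were alternatives. The procedure was tested on simulated counts, which had the same relative spread for every gene. The simulation for genotype held no replicate effect, so it does not cover the split by replicate number seen in these libraries. F4/80hi changes are log2 of FPKM + 1, without a test. Transcript length and GC content are those of the longest protein-coding transcript, and trends were subtracted as medians in 20 bins. Reads outside Rn45s ranged from 3857011 to 22222208 per library, and 1 read was worth 0.0329 to 0.172 CPM. Intervals cover counting error only.

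Deviations from genotype means of same-numbered libraries correlated at 0.75 over 12710 genes. With 2 pairs and no label that says what a number marks, the numbers are not shown to pair the animals. Because they split the libraries by Rn45s share, values within same-numbered pairs are printed, as log2 of CPM + 0.5. Values were given for Ccl5, Mki67, Top2a, Pcna, Mcm2, members called in either contrast, and in each group the 4 with the smallest p for genotype and the 4 with the largest replicate difference, and for up to 4 genes per other list. A further item that this rule took is not reported here. Further members were described for their role after their values were seen. The members and lists were chosen with earlier results of these data known.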

Additional observations from a re-analysis of the deposited data

Results flagged for a closer look

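The F4/80hi difference between the library labelled CCL5-/- and the library labelled WT had the opposite sign to both F4/80low pairs for the G1/S median (log2 change -0.27 in F4/80hi, against 0.27 and 0.45 in the F4/80low pairs). The same held for 6 named members whose F4/80low values were higher in CCL5-/- in both pairs with no overlap of genotypes. In F4/80hi their log2 changes were -0.16 for Mcm2, -0.59 for Mcm3, -0.58 for Mcm4, -1.07 for Ccne2, -0.79 for Mybl2 and -0.35 for Ccnb1. The difference was not tested, since F4/80hi has 1 library per label. Because the F4/80hi libraries match the replicate 1 libraries of F4/80low with crossed labels, the crossed labels set the opposite sign to the replicate 1 pair, and it is no measure of a difference between gates.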

How the results depend on the processing

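The count of members called between genotypes was 0 under each alternative run, while the count of all genes called, 0 in edgeR, was 1 with DESeq2, 10 with the replicate block and 0 to 4 when 1 library was left out. With the block and a library left out no residual degrees of freedom remained, so that fit could not be made. A genotype or replicate number left with 1 library was assumed to vary like the other. The gap of the G2/M median to the G1/S median (-0.24) was -0.22 with limma-voom, -0.26 with the replicate block, -0.27 with GC and length trends subtracted, -0.26 with both, and -0.40 to -0.091 without 1 library. Without 1 library the G1/S median was 0.17 to 0.66 and the G2/M median 0.081 to 0.26.

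Some genotype changes near 0 changed sign: Nusap1 was 0.0030 without the low-count filter, 0.021 with limma-voom and 0.028 with the block, and Gins2 was 0.012 with limma-voom and 0.026 with the block. Without 1 library, changes ran over 0 for Gins1 (-0.092 to 1.16), Gins2 (-0.43 to 0.61), Pcna (-0.25 to 1.11), Tyms (-0.32 to 0.66), Mki67 (-0.84 to 0.49), Cdk1 (-0.58 to 0.996), Birc5 (-0.50 to 0.28) and Nusap1 (-0.68 to 0.84). The cause was not tested.

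For replicate 2 against replicate 1, DESeq2 called 5 members. Without 1 library 2067 to 3215 genes and 2 to 11 members were called, the G1/S median was 0.0085 to 0.50 and the gap -0.40 to -0.089, and the gap was -0.029 with GC and length trends subtracted. In the replicate 2 pair alone 13 G2/M members were higher in CCL5-/-, and in the replicate 1 pair alone 14. In F4/80hi, 458 genes were at least 2-fold apart, 854 with a pseudocount of 0.1 and 243 with an FPKM of at least 5. Trend subtraction and single pairs were chosen after seeing the data. The lowest count of a member was 8 reads, for Ccne2 in WT replicate 1. What share of the spread comes from depth was not tested.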

Other observations

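Of 8 genes of the macrophage growth factor axis, 3 were higher in CCL5-/- in both pairs and 2 lower, against 24.8% and 26.5% of all genes. Their median log2 change was 0.10, and 0 passed edgeR's test. Csf2, the growth factor GM-CSF, had 23.9 and 44.9 CPM in CCL5-/- libraries, against 10.5 and 33.8 CPM in WT libraries, and Csf1, the growth factor of macrophages, had 152 and 338 CPM against 137 and 207 CPM. Both were higher in CCL5-/- in both pairs. Il34, a further ligand of the CSF1 receptor, had 12.1 and 15.8 CPM in CCL5-/- libraries, against 24.9 and 14.9 CPM in WT libraries.

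In the authors' deposited table, the members' log2 changes had a median of 0.15 and a range of -0.18 to 0.56, 35 were above 0, and the lowest adjusted p was 0.9999. The authors' deposited table held 1 gene past an adjusted p of 0.05 among 18000 with a p-value. Mybl2 was at 0.56 there and at 1.02 in the DESeq2 run here, and Cenpe at -0.18 and -0.34. The scale of the deposited changes was not checked, so their sizes are not compared with those above.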
